A study of Mus musculus with 2 samples.

Results

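The genes described here are 42 axon guidance ligands and receptors of the mouse cochlea, 20 ligands and 22 receptors, chosen by gene symbol from the 32285 genes counted in each library. The ligands were 5 ephrin-A genes (Efna1 to Efna5), 3 ephrin-B genes (Efnb1 to Efnb3), 8 semaphorins (Sema3a to Sema3f, Sema5a and Sema6a), 3 slits (Slit1 to Slit3) and the netrin Ntn1. The receptors were 8 Eph kinases (Epha3, Epha4, Epha5, Epha7 and Ephb1 to Ephb4), 2 neuropilins (Nrp1 and Nrp2), 7 plexins (Plxna1 to Plxna4, Plxnb1, Plxnb2 and Plxnd1), Robo1, Robo2, Dcc, Unc5b and Unc5c. All 42 symbols were present in both libraries.

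Dissociated cochleae of E16.5 mouse embryos were profiled by droplet single-cell RNA sequencing of 3′ ends, which counts each captured transcript once by its molecular identifier (UMI). The mutant group carried Emx2Cre;Ptch1f/f, floxed alleles of the Hedgehog receptor gene Ptch1 together with a Cre recombinase named for Emx2, and the comparison group was wild type. Embryos of both groups were on a mixed 129/SvEv and C57BL/6N background, and 8 cochleae per genotype went into 1 library each, so cells of different cochleae cannot be told apart. The series title names Hedgehog signaling through Ptch1 in marginal cell differentiation and formation of the stria vascularis as its subject. With 1 library per genotype no difference between genotypes could be tested, and genotype and library cannot be told apart. Intervals are exact 95% intervals that cover counting error only.

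Guidance cues steer growing axons and also shape epithelia and vessels. Ephrins act on contact through Eph receptor kinases, semaphorins act through plexins, often with a neuropilin as co-receptor, slits act through Robo receptors, and netrin 1 acts through Dcc and the Unc5 proteins. In the developing cochlea, axons of spiral ganglion neurons cross the otic mesenchyme in bundles to reach the sensory epithelium, and Epha4 in that mesenchyme is known to guide the bundling.

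After filtering, the mutant library kept 8670 barcodes with a median of 8151 UMIs, and the wild-type library kept 6108 barcodes with a median of 7272.5. Clusters made without the guidance genes were joined into 9 marker-defined classes. In both libraries 12 of the 13 mesenchymal markers and 8 of the 9 melanocyte markers, and every marker of the other classes, were higher in the labelled class than in the other classes. The epithelial class held 1825 mutant and 1337 wild-type barcodes, the mesenchymal class 3932 and 3135, the neuronal class 68 and 298, and the glial class 450 and 439. A further 1944 mutant and 506 wild-type barcodes lay in clusters left unnamed. The libraries differed in ways that touch the values below. Haemoglobin genes and Alas2 together summed to 242 CPM (UMIs scaled to the class or cluster total) in mutant and 5111 CPM in wild-type epithelium. A wild-type epithelial cluster led by Pou4f3 had 31473 CPM. The other wild-type epithelial clusters with at least 50 barcodes had at most 446 CPM. Col1a1, Col1a2, Col3a1, Dcn and Lum, of the mesenchymal marker set, summed to 677 CPM in mutant and 1328 CPM in wild-type epithelium. Lum, the mesenchymal marker not higher in its class, had 119 CPM in mutant mesenchyme and 183 CPM in the other classes. The wild-type values were 212 and 336 CPM. Dcn had 188 CPM in the other mutant classes, so this sum is not specific to mesenchymal RNA. Ptch1 itself was counted at 188 CPM in mutant and 30.8 CPM in wild-type epithelium, and the Hedgehog target Gli1 at 20.1 and 1.85 CPM. The labels do not say where the deleted exons lie relative to the counted 3′ end, so the Ptch1 count checks nothing about the deletion.

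Ligand transcripts were spread over several classes. Among the 8 classes with at least 50 barcodes, 7 of the 19 ligands counted in the mutant library were highest in epithelium, 5 in mesenchyme, 3 in neurons, 3 in glia and 1 in endothelium. In the wild-type library 3 of 20 were highest in epithelium, 5 in mesenchyme, 5 in neurons, 4 in glia, 2 in endothelium and 1 in pericytes or smooth muscle. Over all genes counted, epithelium was the highest class for 17.4% in the mutant and 14.2% in the wild-type library, mesenchyme for 13.4% and 11.7%, neurons for 23.9% and 25.2%, and glia for 10.6% and 13.3%. The share was 10.7% and 11.5% for endothelium, 9.22% and 9.86% for pericytes or smooth muscle, 14.2% and 14.0% for immune cells, and 0.513% and 0.337% for erythroid cells, where no ligand was highest in either library. A ligand counted here had at least 10 UMIs in its highest class, which left out Slit1 in the mutant library, with 6 UMIs in immune cells.

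Sema3c, a secreted semaphorin, was highest in glia, with 105 CPM in both libraries (mutant interval 95.5 to 115, wild-type interval 93.5 to 117). The next class, epithelium, had 14.2 CPM of Sema3c in the mutant and 25.7 CPM in the wild-type library. Sema3b was also highest in glia, with 22.3 CPM in mutant and 19.3 CPM in wild-type glia. Sema3e, the ligand that binds Plxnd1 directly, was highest in neurons, with 114 CPM in the mutant (98.5 to 132) and 176 CPM in the wild-type library (163 to 190). Glia followed for Sema3e, with 19.7 CPM in mutant and 39.3 CPM in wild-type glia. Sema3a, a repellent for many sensory axons, was likewise highest in neurons, with 107 CPM in mutant and 58.6 CPM in wild-type neurons. Efna1 was an endothelial ligand, with 143 CPM in mutant and 141 CPM in wild-type endothelium, over 18.6 and 28.4 CPM in epithelium of the same libraries.

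Slit2, a secreted repellent, was highest in mesenchyme, with 89.9 CPM in the mutant (87.0 to 92.9) and 121 CPM in the wild-type library (117 to 126). Slit3 was split between epithelium, with 50.7 CPM in mutant and 28.5 CPM in wild-type cells, and glia, with 37.3 CPM in mutant and 36.0 CPM in wild-type cells. Slit1 stayed low, with 3.07 CPM in mutant neurons (0.998 to 7.17) and 3.52 CPM in wild-type neurons (1.92 to 5.91). The remaining ephrins lay in mesenchyme, neurons, glia and epithelium. Efna2 had 54.3 CPM in mutant and 47.0 CPM in wild-type mesenchyme, Efnb1 had 57.0 and 47.0 CPM there, and Efnb3 had 29.2 and 28.4 CPM, the wild-type level close to the 27.4 CPM of wild-type neurons. Efna3 was highest in neurons, with 17.8 CPM in mutant and 12.6 CPM in wild-type cells, and Efna5 in glia, with 51.3 and 41.5 CPM, close to its 49.4 and 38.4 CPM in mesenchyme. Efna4 had 54.3 CPM in mutant and 40.8 CPM in wild-type epithelium, beside 42.9 and 43.5 CPM in mesenchyme. Of the remaining semaphorins, Sema3f, a ligand of Nrp2, had 48.6 CPM in mutant and 28.1 CPM in wild-type epithelium, and Sema3d had 21.3 and 30.2 CPM there. Sema5a, a transmembrane semaphorin, had 120.3 CPM in mutant and 83.2 CPM in wild-type mesenchyme, beside 107 and 106 CPM in pericytes. Efnb2, the transmembrane ephrin that binds EphB receptors and Epha4, and the membrane-bound semaphorin Sema6a were counted above 50 CPM in epithelium, mesenchyme, neurons, glia, endothelium and pericytes of both libraries. In epithelium Efnb2 had 198 CPM in the mutant and 90.3 CPM in the wild-type library, and Sema6a had 221 and 112 CPM. Efnb2 reached 152 CPM in mutant and 188 CPM in wild-type endothelium, and 143 CPM in mutant and 222 CPM in wild-type neurons. Sema6a reached 168 CPM in mutant and 189 CPM in wild-type endothelium, and 154 CPM in mutant and 162 CPM in wild-type neurons.

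**Figure D1:**
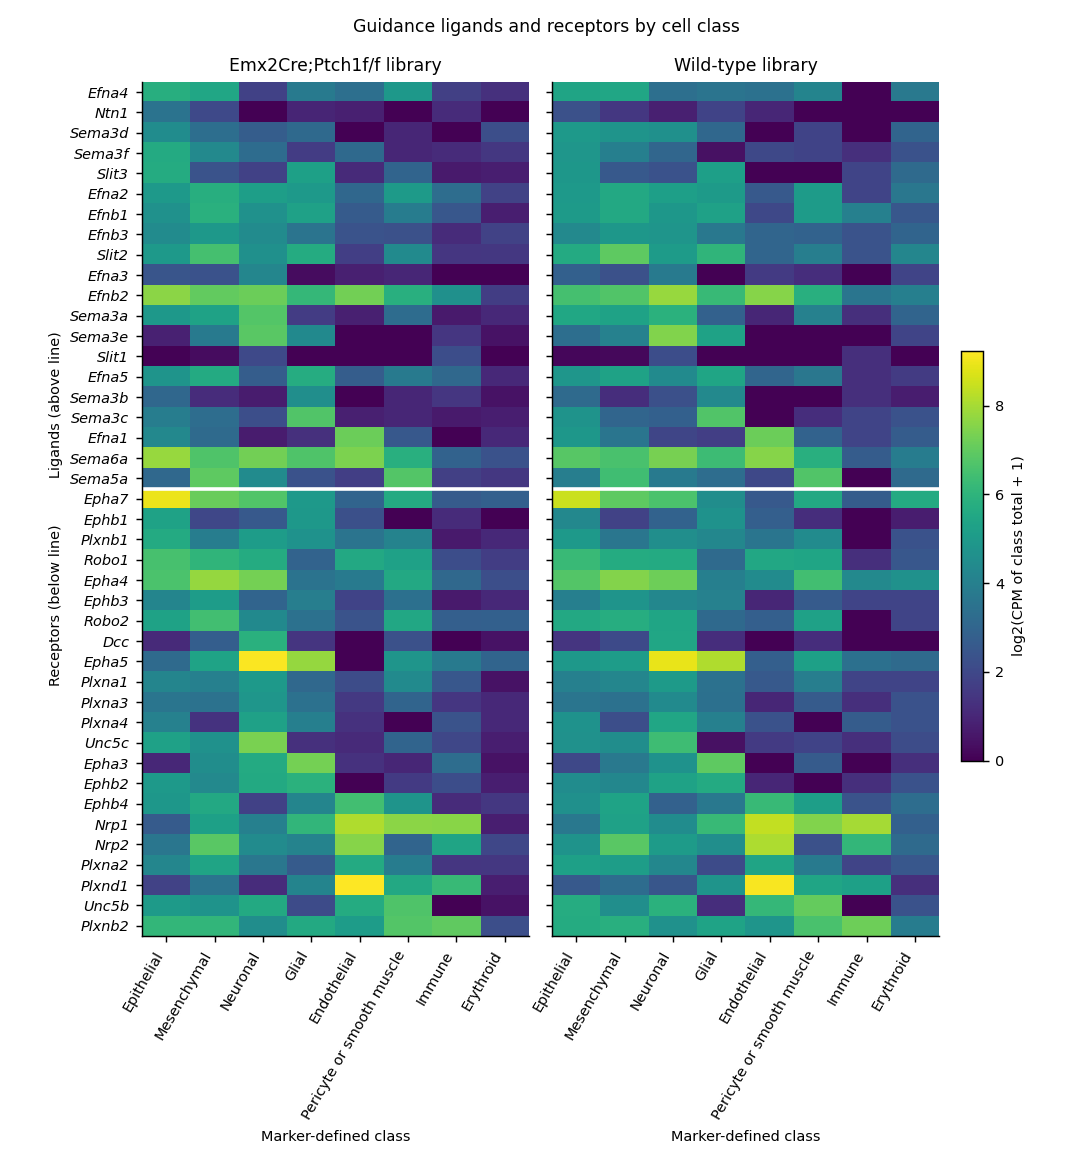
Levels of the 42 guidance genes, as log2(CPM of class total + 1) on a colour scale, in 8 marker-defined classes, with the mutant library on the left and the wild-type library on the right; ligands are above the white line and receptors below it. Along a gene's own line, the same class is brightest in both libraries for 35 of 41 genes, and each gene is to be compared across classes only.

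Of the 22 receptors, 6 were highest in neurons and 5 in endothelium in the mutant library, and the same numbers were found in the wild-type library. Epithelium was highest for 4 receptors in the mutant and 3 in the wild-type library, mesenchyme for 3 and 3, and glia for 2 and 3. Of the 41 members counted in both libraries, 35 had the same highest class in both. The intervals of the highest and the next class did not overlap for 17 of 19 ligands and 18 of 22 receptors in the mutant library. In the wild-type library they did not overlap for 9 of 20 ligands and 19 of 22 receptors. Neither agreement between libraries nor overlap of intervals was counted over all genes, so these counts do not set the members apart from other genes. Where the highest class differed between libraries, the mutant one was epithelium for Efna4, Efnb2, Ephb1, Sema6a and Slit3, and mesenchyme for Sema5a. In the wild-type library the intervals of those 6 genes overlapped between the highest class and the next.

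Plxnd1, the plexin of vascular patterning, had 585 CPM in mutant (557 to 615) and 568 CPM in wild-type endothelium (522 to 616). Its next class lay 8.01-fold lower in the mutant and 13.6-fold lower in the wild-type library. Nrp1 and Nrp2, the neuropilin co-receptors of class 3 semaphorins, were also highest in endothelium. Nrp1 had 278 CPM in mutant and 330 CPM in wild-type endothelium, with pericytes at 197 and 178 CPM and immune cells at 190 and 255 CPM. Nrp2 had 188 CPM in mutant and 272 CPM in wild-type endothelium, and 117 and 115 CPM in mesenchyme. Ephb4, the venous receptor for ephrin-B2, had 86.3 CPM in mutant and 73.6 CPM in wild-type endothelium. Plxna2 was the fifth receptor for which endothelium was the highest class, with 49.2 and 40.8 CPM. Its interval overlapped that of the next class in both libraries. For Plxna2 and Nrp2 a single mesenchymal cluster, led by Col8a1, was higher than endothelium. It held 120.4 CPM of Plxna2 in mutant and 80.5 CPM in wild-type barcodes, and 330 and 344 CPM of Nrp2. Unc5b was highest in pericytes or smooth muscle, with 102 CPM in mutant (83.1 to 123) and 132 CPM in wild-type cells (107 to 160).

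Epha5, a receptor for ephrin-A ligands, was highest in neurons, with glia next. It had 579 CPM in mutant (542 to 617) and 483 CPM in wild-type neurons (461 to 505). In glia Epha5 had 217 CPM in the mutant and 279 CPM in the wild-type library. Dcc, the attractive netrin receptor, had 57.2 CPM in mutant (46.2 to 70.0) and 43.5 CPM in wild-type neurons (37.3 to 50.5), with mesenchyme next at 5.82 and 3.21 CPM. Unc5c, a repulsive netrin receptor, had 164 CPM in mutant and 81.7 CPM in wild-type neurons, with epithelium next at 38.0 and 24.6 CPM. Ntn1, the ligand of both, had 0 UMIs in mutant neurons, which allows up to 1.84 CPM, and 0.754 CPM in wild-type neurons. Plxna1, Plxna3 and Plxna4, which transmit class 3 and class 6 semaphorin signals, were also highest in neurons in both libraries. Plxna1 had 30.1 CPM in mutant and 31.9 CPM in wild-type neurons, Plxna3 had 27.7 and 20.4 CPM, and Plxna4 had 38.1 and 43.3 CPM.

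Epha3 and Ephb2, an ephrin-A and an ephrin-B receptor, were highest in glia. Epha3 had 155 CPM in mutant (143 to 168) and 121 CPM in wild-type glia (109 to 134), against 48.6 and 25.4 CPM in neurons. Ephb2 had 57.7 CPM in mutant and 49.1 CPM in wild-type glia, with neurons next at 48.0 and 38.7 CPM. Epha4, which binds both ephrin-A and ephrin-B ligands, was highest in mesenchyme, with 215 CPM in the mutant and 181 CPM in the wild-type library, and neurons followed with 155 and 147 CPM. Robo2 and the ephrin-B receptor Ephb3 were mesenchymal too, with Robo2 at 85.1 CPM in mutant and 52.5 CPM in wild-type mesenchyme and Ephb3 at 33.3 and 26.2 CPM. Epha7, an ephrin-A receptor, was highest in epithelium, with 492 CPM in mutant (482 to 502) and 361 CPM in wild-type epithelium (352 to 371). Mesenchyme followed for Epha7 with 136 CPM in the mutant and 120 CPM in the wild-type library. Erythroid barcodes, which should lack Epha7, had 6.13 CPM in the mutant and 49.5 CPM in the wild-type library. Haemoglobin genes and Alas2 took 904102 CPM of the mutant and 692818 CPM of the wild-type erythroid total. This lowers every other CPM value there, more in the mutant, so these Epha7 values understate the free RNA. The slit receptor Robo1 had 92.6 CPM in mutant and 75.1 CPM in wild-type epithelium, its highest class in both libraries. An unnamed cluster led by Ccn3 and Tnc, outside the ranked classes, was higher, with 135 CPM of Robo1 in mutant and 199 CPM in wild-type barcodes. The plexin Plxnb1 had 48.8 CPM in mutant and 31.2 CPM in wild-type epithelium. Plxnb2, a receptor for class 4 semaphorins, was highest in immune cells with 125 CPM in mutant and 146 CPM in wild-type cells.

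Within the epithelium several members were highest in 1 cluster. Most epithelial barcodes of the 2 libraries lay in different clusters. Mutant barcodes lay in a cluster led by Adamts19 and Tectb (prosensory- or supporting-like), a dividing cluster and 2 shallow clusters. Wild-type barcodes lay in clusters led by S100a1 and Jag1 (prosensory- or supporting-like) and by Bmp4 and Gata2 (lateral-like). Others were led by Pou4f3 (hair cell-like) and by Ptgds and Esrrb (marginal-like). Melanocyte genes summed to 2607 CPM in the marginal-like cluster. Both libraries filled a cluster led by Smoc2 and Otoa (medial-like), a cluster led by Calb1 and Epyc (medial-like) and a cluster led by Oc90 and Otx2 (roof-like). Ntn1, the secreted netrin, was highest in the roof-like cluster, with 54.1 CPM in mutant (46.4 to 62.7) and 40.4 CPM in wild-type barcodes of the Oc90 cluster (29.1 to 54.6), and at most 4.23 CPM in the other epithelial clusters of either library. Unc5c was highest in the same cluster in the mutant, with 121 CPM, against 63.4 CPM in the wild-type library, where the Bmp4 cluster was higher with 76.5 CPM. Slit3 was highest in the Smoc2 cluster, with 143 CPM in mutant (131 to 156) and 94.2 CPM in wild-type barcodes (82.4 to 107).

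Sema3a and Unc5b were high in the lateral-like Bmp4 cluster, which only the wild-type library filled with at least 50 barcodes. Sema3a had 196 CPM there (175 to 219) and Unc5b had 166 CPM (147 to 187). Efnb2 was highest in the mutant Adamts19 cluster, with 365 CPM (348 to 382), and Sema6a had 322 CPM there. Epha7 was highest in the medial-like clusters, with 837 CPM in mutant and 656 CPM in wild-type barcodes of the Smoc2 cluster, and 677 and 674 CPM in the Calb1 cluster. The hair cell-like cluster had 220 CPM of Epha7 and the marginal-like cluster 45.0 CPM, both in the wild-type library.

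**Figure D2:**
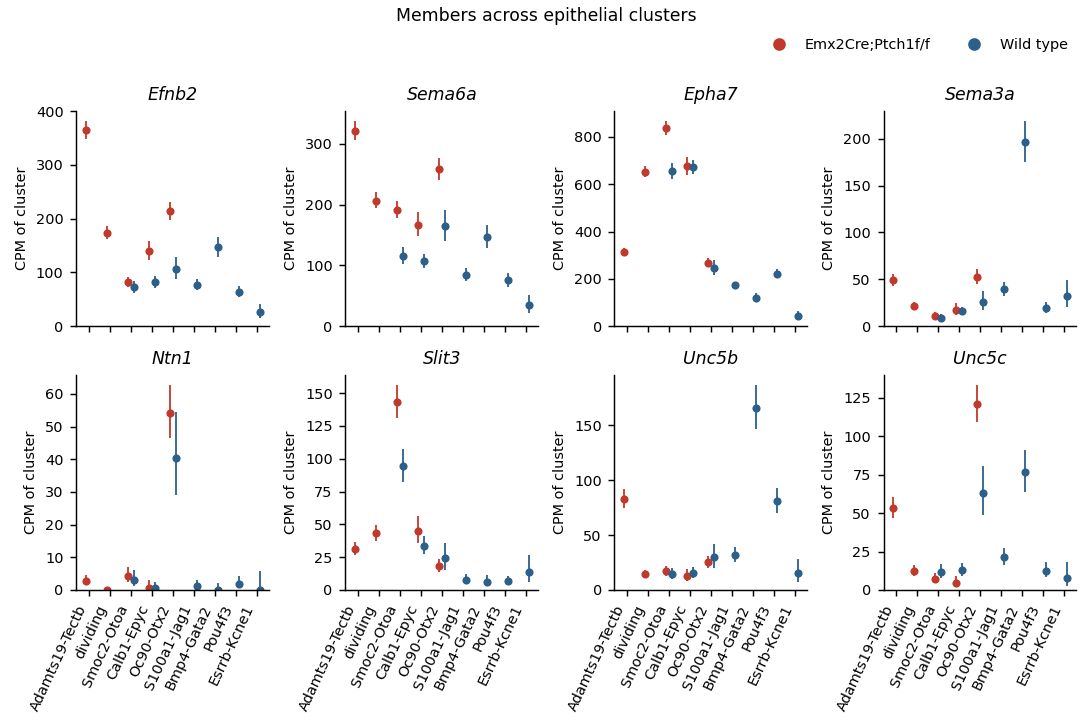
CPM of the cluster total for 8 guidance genes in 9 epithelial clusters. Clusters are named on the horizontal axis by leading genes, with Kcne1 taken from the marginal marker set. Red points are mutant and blue points wild type, with exact 95% counting intervals. A colour is missing where a library has under 50 barcodes in a cluster. Ntn1 stands out in the Oc90-Otx2 cluster at 54.1 CPM in the mutant and 40.4 CPM in the wild type, and Sema3a and Unc5b in the Bmp4-Gata2 cluster.

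Between genotypes, 41 members could be compared in epithelium (at least 10 UMIs over both libraries), of which 3 were higher in the mutant by 2-fold or more and 4 were lower by as much. The same held for 2.2% (higher) and 5.79% (lower) of the 16151 genes compared. The median log2 ratio (mutant over wild type, 1 CPM added) was -0.10 over the members and 0.03 over all genes. Among those past 2-fold, 2 ligands were higher and 1 was lower, and 1 receptor was higher and 3 were lower.

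The ligands past 2-fold were Efnb2, Ntn1 and Sema3e. Efnb2 had 198 CPM in mutant (192 to 204) and 90.3 CPM in wild-type epithelium (85.5 to 95.2), a log2 ratio of 1.12. After every barcode was thinned to 2000 UMIs, which left out 535 shallower mutant barcodes and no wild-type one, 28.8% of mutant and 15.1% of wild-type epithelial barcodes held an Efnb2 UMI (unthinned, 47.8% and 50.3%, with medians of 5172 and 8229 UMIs). Among thinned erythroid barcodes the share was 0 of 50 in the mutant, which allows up to 6%, and 3.54% in the wild-type library, with medians of 38547 and 9552 UMIs before thinning. Unthinned, these erythroid shares were 12% and 15.9%. Haemoglobin genes and Alas2 made up 904102 CPM of mutant and 692818 CPM of wild-type erythroid UMIs. Thinning therefore left few other UMIs there, and unequally between libraries, so thinned erythroid shares here and below give no background level. Within the 3 clusters that both libraries filled, Efnb2 was higher in the mutant in each, with 214 and 107 CPM in the Oc90 cluster, 139 and 82.0 CPM in the Calb1 cluster, and 82.4 and 73.0 CPM in the Smoc2 cluster. The 2 values of the Smoc2 cluster lay close together, where the median log2 ratio over all genes was 0.12. Averaged over the 3 clusters with equal weight, the log2 ratio of Efnb2 was 0.73. Ntn1 had 10.5 CPM in mutant (9.12 to 12) and 3.83 CPM in wild-type epithelium (2.91 to 4.95). Its log2 ratio of 1.25 turned to -0.76 without barcodes carrying genes of other lineages, which left 498 mutant and 101 wild-type barcodes. That rule counted Dcn and Lum as foreign to epithelium, although Lum was higher outside mesenchyme. The barcodes left out therefore need not hold RNA of other lineages, here and for Ephb1 and Nrp1 below. The log2 ratio of Ntn1 turned to -0.16 among barcodes with Epcam or Cdh1. Sema3e had 0.807 CPM in mutant (0.461 to 1.31) and 9.18 CPM in wild-type epithelium (7.72 to 10.8), a log2 ratio of -2.49. Wild-type erythroid barcodes held 2.71 CPM of Sema3e, of a total that was mostly haemoglobin. Sema3e was highest in neurons, and neuronal markers moved with it in epithelium: the 10 of 13 neuronal markers that were at least 20-fold higher in neurons than in the other classes, in each library, summed to 38.3 CPM in mutant and 478 CPM in wild-type epithelium, 9 of the 10 were past 2-fold lower in the mutant, and 1 was at 0 there. Of these, Tubb3 had 6.46 CPM in mutant and 52.7 CPM in wild-type epithelium. Without barcodes in which these markers exceeded 5 of 10000 UMIs, which left 1792 mutant and 936 wild-type barcodes, Sema3e had 0.811 CPM in mutant and 2.74 CPM in wild-type epithelium, a log2 ratio of -1.05.

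The receptors past 2-fold were Ephb1, Epha5, Nrp1 and Nrp2. Ephb1, a receptor for ephrin-B ligands, had 38.8 CPM in mutant (36.1 to 41.6) and 18.8 CPM in wild-type epithelium (16.6 to 21.1). Its log2 ratio of 1.01 was 0.09 without barcodes carrying genes of other lineages, by the rule that left 498 mutant and 101 wild-type barcodes. Epha5 had 8.02 CPM in mutant (6.82 to 9.37) and 29 CPM in wild-type epithelium (26.3 to 31.8), a log2 ratio of -1.73. Epha5 is also a gene highest in neurons, and its ratio was smaller without barcodes rich in neuronal markers, at -0.88, with 8.01 CPM in mutant and 15.5 CPM in wild-type epithelium. Without any barcode holding a UMI of those markers, which left 1456 mutant and 543 wild-type barcodes, its log2 ratio was -0.92, so the 2-fold difference of Epha5 was not kept under either exclusion. Without any such barcode the log2 ratio was 0.95 for Efnb2, -0.18 for Nrp1 and -0.23 for Ntn1. Ephb1 at 1.09, Nrp2 at -1.06 and Sema3e at -1.26 stayed past 2-fold, Sema3e from 4 mutant and 13 wild-type UMIs. In the Smoc2 and Calb1 clusters, where the neuronal markers summed to at most 51.3 CPM in either library, Epha5 had 6.49 and 1.70 CPM in mutant and 8.76 and 1.71 CPM in wild-type barcodes. Nrp2 had 11.2 CPM in mutant (9.78 to 12.8) and 25.9 CPM in wild-type epithelium (23.4 to 28.6). Nrp1 had 5.20 CPM in mutant (4.24 to 6.30) and 12 CPM in wild-type epithelium (10.3 to 13.9), and its log2 ratio of -1.07 turned to 0.14 without barcodes carrying genes of other lineages and to 0.58 among barcodes with Epcam or Cdh1. Both neuropilins were far higher in endothelium, whose marker genes summed to 19.6 CPM in mutant and 54.0 CPM in wild-type epithelium, and the part of that RNA in the neuropilin values was not tested.

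**Figure D3:**
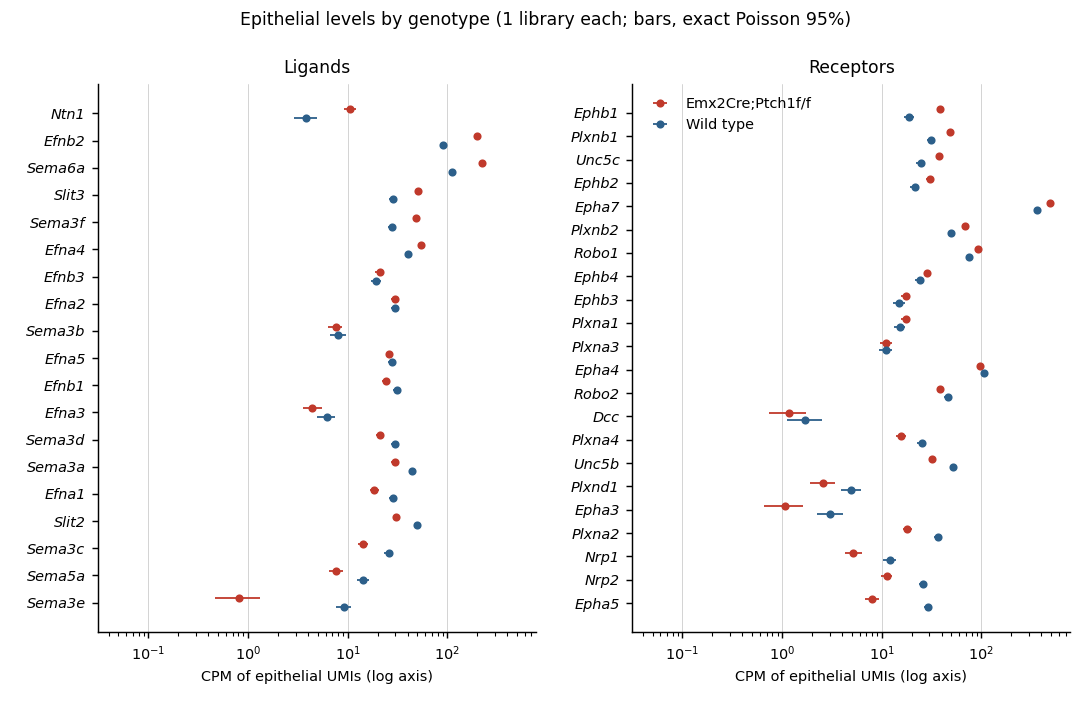
CPM of epithelial UMIs on a log axis for 19 ligands (left) and 22 receptors (right), in order of the log2 ratio of mutant to wild type; red points are the mutant library, blue points the wild-type library, and bars are exact 95% counting intervals. Ntn1 and Efnb2 at the top of the ligands and Ephb1 at the top of the receptors pass 2-fold upward in the mutant, and Sema3e, Epha5, Nrp2 and Nrp1 at the bottom pass it downward.

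Further members passed 2-fold within single clusters. In the medial-like Calb1 cluster, with 181 mutant and 258 wild-type barcodes, 1 of 34 measured members passed 2-fold upward in the mutant and 7 downward, beside 4.56% and 4.53% of all genes. The upward one was Nrp1, with 7.36 CPM in mutant and 2.73 CPM in wild-type barcodes, from only 13 and 8 UMIs. Plxna2, a plexin for class 6 and class 3 semaphorins, had 6.80 CPM in mutant (3.51 to 11.9) and 77.9 CPM in wild-type barcodes of that cluster (68.1 to 88.6), a log2 ratio of -3.34. After thinning to 2000 UMIs, which left out 8 mutant barcodes, 1.16% of mutant and 12.4% of wild-type barcodes of the cluster held a Plxna2 UMI, and 0 of 50 mutant and 0.885% of wild-type erythroid barcodes did (a count of 0 allows up to 6%). Unthinned, the shares of the Calb1 cluster were 5.20% and 34.1%, with medians of 7992 and 8603.5 UMIs. Those of erythroid barcodes, whose UMIs were mostly haemoglobin, were 6% and 5.31%. Wild-type mesenchyme held 34 CPM of Plxna2 as a whole, and 80.5 CPM in its Col8a1 cluster and 77.1 CPM in its Cdh6 cluster, near the level of the Calb1 cluster.

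The other members of the Calb1 cluster with at least 30 UMIs that passed 2-fold downward in the mutant were 3 secreted ligands and 2 receptors. Sema3d, a repellent of the neuropilin-binding class, had 23.2 CPM in mutant (16.7 to 31.5) and 78.5 CPM in wild-type barcodes (68.7 to 89.4). Slit2 had 31.7 CPM in mutant (24 to 41.2) and 88.8 CPM in wild-type barcodes (78.3 to 100.3). Sema3c had 10.8 CPM in mutant (6.48 to 16.8) and 36.2 CPM in wild-type barcodes (29.6 to 43.8). Plxna4, the plexin that transmits Sema3a signals in sensory neurons, had 12.5 CPM in mutant and 48.8 CPM in wild-type barcodes, and Unc5c had 4.53 and 13 CPM. Epha7 was at 677 CPM in mutant and 674 CPM in wild-type barcodes. Col1a1, Col1a2, Col3a1, Dcn and Lum summed to 912 CPM in mutant and 1889 CPM in wild-type barcodes of the Calb1 cluster. Wild-type mesenchyme held 26.8 CPM of Sema3d as a whole and 186 CPM in its Col14a1 cluster, and it held 121 CPM of Slit2. The part of mesenchymal RNA in the Plxna2, Sema3d and Slit2 values of the Calb1 cluster was not tested.

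In the Smoc2 cluster 0 of 37 members passed 2-fold upward in the mutant and 3 downward, beside 3.77% and 2.83% of all genes. Plxna2 was again among the lower ones, with 22.9 CPM in mutant (18.2 to 28.4) and 67.1 CPM in wild-type barcodes (57.2 to 78.3), and so was Nrp2, with 9.59 and 30.9 CPM. In the Calb1 cluster Nrp2 had 24.3 CPM in mutant and 18.1 CPM in wild-type barcodes. In the Oc90 cluster 1 of 41 members passed 2-fold upward and 7 downward, beside 5.3% and 7.62% of all genes. Nrp2 had 6.18 CPM in mutant and 33.6 CPM in wild-type barcodes of that cluster, Slit2 had 7.73 and 30.8 CPM, Epha5 had 28.8 and 80.7 CPM, and Sema5a had 9.28 and 24 CPM. The 10 neuronal markers summed to 48.2 CPM in mutant and 685 CPM in wild-type barcodes of the Oc90 cluster, and their part in the Epha5 value there was not tested. The median depth of the Oc90 cluster was 22323 UMIs in the mutant and 6206 UMIs in the wild-type library. Averaged over the 3 clusters with equal weight, the log2 ratio of Plxna2 was -1.93, against -0.99 over the whole epithelial class. Sema3d went opposite ways in these clusters, lower in the mutant in the Calb1 cluster and higher in the Oc90 cluster, with 51.3 CPM in mutant and 29.8 CPM in wild-type barcodes.

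**Figure D4:**
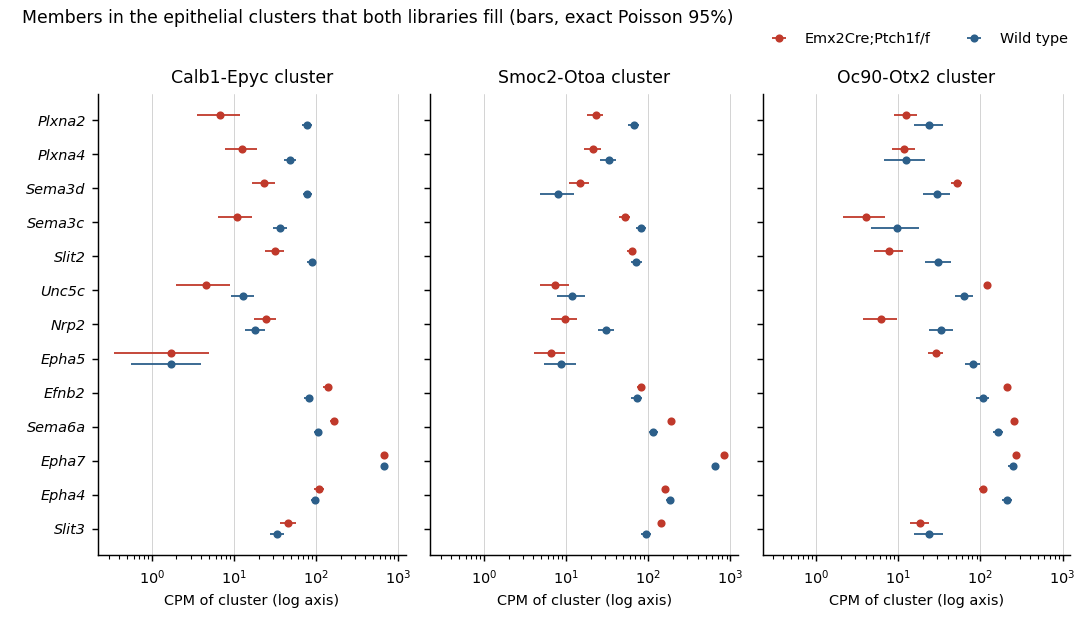
CPM of the cluster total on a log axis for 13 guidance genes in the 3 epithelial clusters that both libraries fill; red points are mutant and blue points wild type, with exact 95% counting intervals. Plxna2, Plxna4, Sema3d, Sema3c, Slit2 and Unc5c lie to the left in the mutant in the Calb1-Epyc cluster, where Epha7 overlaps at 677 CPM in the mutant and 674 CPM in the wild type.

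Sequences before the RefSeq starts of Efnb2, Plxna2 and Sema3d are printed as members with large differences above, chosen after their values were seen: Efnb2 was higher in mutant epithelium, and Plxna2 and Sema3d were lower in the mutant Calb1 cluster. Each is the 250 bases before the annotated start in the RefSeq promoter table, build GRCm38.p6, written 5′ to 3′ on the gene's strand with CG pairs in capitals. The windows lie at chr8:8661243-8661492 on the minus strand for Efnb2, chr1:194619579-194619828 on the plus strand for Plxna2 and chr5:12382916-12383165 on the plus strand for Sema3d. In the GENCODE annotation the gene record of Efnb2 starts at the same base as in RefSeq, while that of Plxna2 starts at 194618218, so that the Plxna2 window lies inside the record, and that of Sema3d starts at 12383385, beyond the end of the Sema3d window.
Efnb2: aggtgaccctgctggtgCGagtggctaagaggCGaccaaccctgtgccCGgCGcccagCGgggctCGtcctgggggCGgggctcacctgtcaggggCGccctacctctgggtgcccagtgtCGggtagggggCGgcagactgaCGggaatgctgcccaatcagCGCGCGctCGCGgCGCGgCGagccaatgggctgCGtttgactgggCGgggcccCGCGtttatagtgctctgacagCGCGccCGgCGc
Plxna2: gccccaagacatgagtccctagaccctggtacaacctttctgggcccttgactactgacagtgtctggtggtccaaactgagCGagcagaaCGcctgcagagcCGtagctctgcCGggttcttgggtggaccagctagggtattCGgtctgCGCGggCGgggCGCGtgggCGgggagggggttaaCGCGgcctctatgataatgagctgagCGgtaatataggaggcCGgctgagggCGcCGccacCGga
Sema3d: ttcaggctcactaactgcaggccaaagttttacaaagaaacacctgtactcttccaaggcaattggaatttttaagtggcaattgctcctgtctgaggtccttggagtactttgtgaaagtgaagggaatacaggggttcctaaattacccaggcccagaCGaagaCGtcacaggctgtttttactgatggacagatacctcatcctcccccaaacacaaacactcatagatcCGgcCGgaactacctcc
Efnb2 had 27 CG pairs in this window, Plxna2 had 18 and Sema3d had 4, and 8.56%, 21.7% and 62.2% of the 32851 windows in the table had at least as many. The letters GACCACCCA, the consensus bound by the GLI factors of the Hedgehog pathway, were searched on both strands (TGGGTGGTC on the other). They occurred in 0 of the 39 windows of the 33 members found in the table, and in 74 of the 32851 windows (0.225%). No match says only that these letters are not in these windows.

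In the whole mesenchyme 1 member passed 2-fold between genotypes, while several differed more than that between clusters. Of 42 members, 0 passed 2-fold upward in the mutant and 1 downward, beside 0.441% and 0.809% of 16568 genes, and the median log2 ratio was 0.18 over the members and 0.04 over all genes. The member past 2-fold was Sema3d, with 9.15 CPM in mutant (8.23 to 10.1) and 26.8 CPM in wild-type mesenchyme (24.8 to 28.8), a log2 ratio of -1.45. Over the 10 mesenchymal clusters that both libraries filled, weighted equally, its log2 ratio was -1.08. Sema3d was highest in a cluster led by Col14a1 and Aspn, where it had 57.9 CPM in mutant (45.4 to 72.7) and 186 CPM in wild-type barcodes (168 to 205). The Col14a1 cluster held 132 mutant and 209 wild-type barcodes. In that cluster 9.3% of mutant and 22.5% of wild-type barcodes held a Sema3d UMI after thinning to 2000 UMIs, and unthinned 17.8% and 37.8% did, with medians of 9454 and 8683 UMIs. The thinned erythroid share for Sema3d was 0 of 50 barcodes in the mutant, up to 6%, and 3.54% in the wild-type library. Unthinned, it was 4% and 8.85%. A dividing mesenchymal cluster led by Hist1h1b and Hist1h2ap had 3.28 CPM of Sema3d in the mutant and 20.6 CPM in the wild-type library. In that dividing cluster 1 of 41 members passed 2-fold upward and 1 downward, beside 1.35% and 1.46% of all genes.

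The Col14a1 cluster differed in other secreted ligands as well. Of its 38 measured members, 3 passed 2-fold upward in the mutant and 3 downward, beside 3.11% and 3.83% of all genes. Slit2 had 30.5 CPM in mutant (21.7 to 41.7) and 75.3 CPM in wild-type barcodes (64.2 to 87.8). Sema3c went the other way, with 32.9 CPM in mutant (23.7 to 44.4) and 7.81 CPM in wild-type barcodes (4.55 to 12.5). Plxna2 had 10.2 CPM in mutant and 22 CPM in wild-type barcodes, and it was also lower in a cluster led by Cdh6 and Btg2, with 33.8 CPM in mutant and 77.1 CPM in wild-type barcodes. In the Col8a1 cluster, the highest for Plxna2 in both libraries, it had 120.4 CPM in mutant and 80.5 CPM in wild-type barcodes, and over the 10 mesenchymal clusters that both libraries filled, weighted equally, its log2 ratio was 0.05. In the Cdh6 cluster 3 of 36 members passed 2-fold upward and 1 downward, beside 5.68% and 2.4% of all genes.

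A cluster led by Col8a1 and Penk had 5 of 41 members past 2-fold upward in the mutant and 0 downward, beside 2.53% and 1.43% of all genes. Efna5, an ephrin-A ligand, had 123 CPM in mutant (114 to 133) and 58.1 CPM in wild-type barcodes (49.2 to 68.2). Netrin and its receptor Dcc were both among the 5, with Ntn1 at 13.9 CPM in mutant (10.9 to 17.5) and 4.23 CPM in wild-type barcodes (2.11 to 7.58). Dcc had 30.6 CPM in mutant (26.1 to 35.8) and 13.9 CPM in wild-type barcodes (9.71 to 19.2), and this was the highest cluster for Dcc after the neurons. Sema3f had 23.5 CPM in mutant and 9.62 CPM in wild-type barcodes, and Slit3 had 14.3 and 6.54 CPM. With 5 CPM added in place of 1, Efna5 and Ntn1 stayed past 2-fold, while the log2 ratios of Sema3f, Dcc and Slit3 were 0.96, 0.92 and 0.74. Epha3 was higher in the mutant in a cluster led by Car3 and Otor, with 37.8 CPM in mutant (32.9 to 43.3) and 11.3 CPM in wild-type barcodes (8.01 to 15.4). In that cluster 1 of 37 members passed 2-fold upward and 1 downward, beside 1.88% and 1.63% of all genes.

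Slit2 and its receptor Robo2 were highest in different clusters. The cluster led by Coch and Wnt2 had 244 CPM of Slit2 in the mutant (231 to 257) and 338 CPM in the wild-type library (321 to 356), while Robo2 was at 8.00 and 2.52 CPM there. The dividing Coch cluster had 265 CPM of Slit2 in mutant and 258 CPM in wild-type barcodes. Robo2 was highest in the unnamed cluster led by Ccn3 and Tnc, with 346 CPM in mutant (334 to 359) and 323 CPM in wild-type barcodes (300.2 to 346). The Cdh6 cluster followed with 312 and 283 CPM of Robo2, and Slit2 was at 62.9 and 58.4 CPM there. Epha4 was highest in the Cdh6 cluster, with 502 CPM in mutant and 512 CPM in wild-type barcodes. Nrp2 was high in the Foxd1 cluster, with 371 and 269 CPM, and in the Col8a1 cluster, with 330 and 344 CPM, and Efnb1 followed the same clusters with 126 and 123 CPM and with 136 and 118 CPM.

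**Figure D5:**
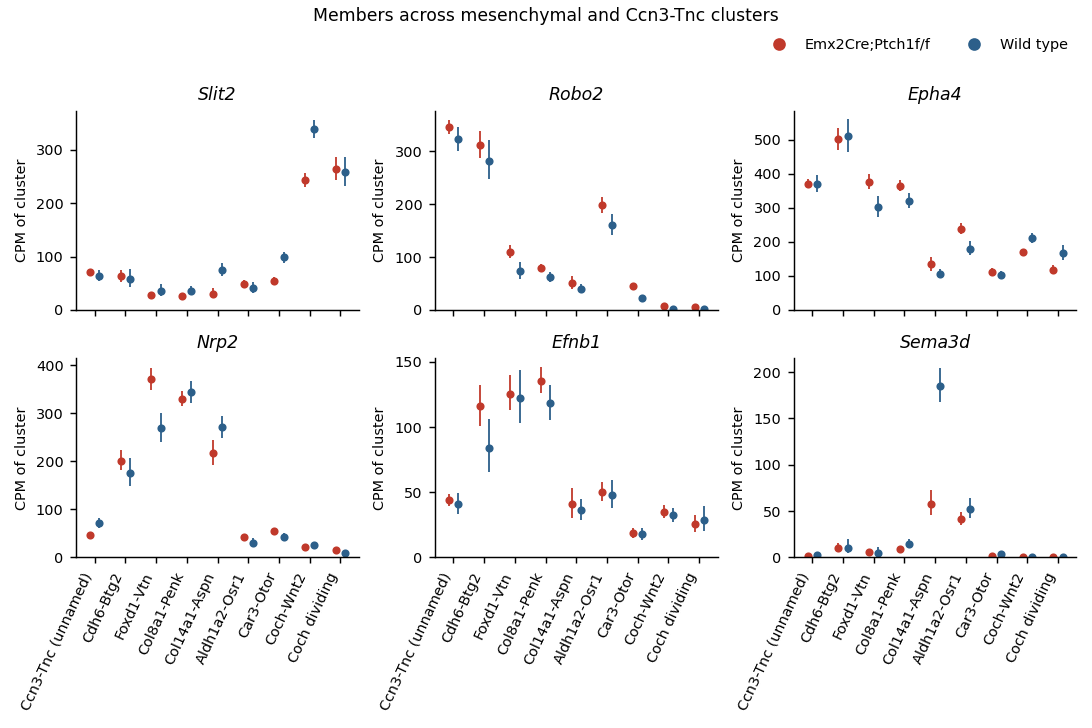
CPM of the cluster total for Slit2, Robo2, Epha4, Nrp2, Efnb1 and Sema3d in 8 mesenchymal clusters and the unnamed Ccn3-Tnc cluster, named by leading genes; red points are mutant and blue points wild type, with exact 95% counting intervals. Slit2 peaks in the 2 Coch clusters where Robo2 is near its lowest, and Sema3d is high in the Col14a1-Aspn cluster at 57.9 CPM in the mutant and 186 CPM in the wild type.

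In neurons 0 of 41 members passed 2-fold upward in the mutant and 9 downward, beside 2.31% and 11.3% of all 12759 genes. The 9 lower ones were 5 ligands and 4 receptors, and 5 of them had at least 30 UMIs. Sema3d had 5.53 CPM in mutant (2.53 to 10.5) and 23.9 CPM in wild-type neurons (19.3 to 29.2). Efna5 had 5.53 CPM in mutant and 20.4 CPM in wild-type neurons, Efna4 had 2.46 and 9.30 CPM, and Ephb3 had 6.76 and 18.1 CPM. Robo2 had 19.7 CPM in mutant (13.5 to 27.8) and 42 CPM in wild-type neurons (35.9 to 48.9). Each of these 5 genes was higher in wild-type mesenchyme than in wild-type neurons. The part of mesenchymal RNA in their neuronal values was not tested. Col1a1, Col1a2, Col3a1, Dcn and Lum together summed to 36.9 CPM in mutant and 605 CPM in wild-type neurons. Without the barcodes carrying genes of other lineages, Dcn and Lum counted among them, 4 members rather than 9 passed 2-fold downward. The log2 ratio of Sema3d was then -0.24. When only erythroid, macrophage, endothelial and melanocyte genes defined such barcodes, all 5 named genes stayed past 2-fold, with log2 ratios between -1.96 for Sema3d and -1.11 for Robo2. The 9 members highest in neurons in the mutant library all stayed within 2-fold, with log2 ratios between -0.62 for Sema3e and 0.99 for Unc5c. The median depth of the neuronal barcodes was 22941.5 UMIs in the mutant and 6793 UMIs in the wild-type library.

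In glia 1 of 39 members passed 2-fold upward in the mutant and 1 downward, beside 2.1% and 1.49% of 12452 genes, with a median of 0.00 over the members. The 2 genes were Sema3f, with 9 UMIs in the mutant and 1 in the wild-type library, and Sema3a, with 9 and 19 UMIs, both under the 30 UMIs set for a named difference. Within the larger glial cluster, led by Ednrb, Sema3e had 21.4 CPM in mutant (16.3 to 27.4) and 51.5 CPM in wild-type barcodes (42.1 to 62.2). In that cluster 0 of 36 members passed 2-fold upward and 3 downward, beside 2.99% and 1.64% of all genes.

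Other genes of the same pathways were read from 2 further lists. Of 37 other guidance ligands and receptors, 32 were measured in epithelium, and 1 passed 2-fold upward in the mutant and 1 downward (3.12% each, beside 2.2% and 5.79% of all genes). These were Sema5b, a class 5 semaphorin, with 33.2 CPM in mutant and 13.9 CPM in wild-type epithelium, and the netrin Ntn4, with 0.858 and 3.10 CPM. In mesenchyme 0 of 31 passed 2-fold in either direction, beside 0.441% (higher) and 0.809% (lower) of all genes. Among those with at least 30 UMIs the log2 ratios lay between -0.73 (Ntn4) and 0.46 (Rgma). Of 24 measured in glia 1 was higher and 0 were lower, beside 2.1% and 1.49% of all genes. The higher one was Sema3g, with 6.18 CPM in mutant and 2.29 CPM in wild-type glia. In neurons 1 of 27 was higher and 2 were lower, beside 2.31% and 11.3% of all genes. The higher one in neurons was Rgmb, a repulsive guidance molecule, with 100.8 CPM in mutant and 42 CPM in wild-type neurons. Of 36 intracellular transducers of guidance signals, 35 were measured in epithelium, and 0 passed 2-fold upward and 3 downward (8.57%, beside 5.79% of all genes). The 3 were Crmp1, with 0.858 CPM in mutant and 16.6 CPM in wild-type epithelium, Gap43, with 5.35 and 46.0 CPM, and Dpysl3, with 29.7 and 83.8 CPM, all genes of growing neurites. The neuronal markers moved the same way, as given above, and 1 transducer rather than 3 was lower among barcodes with Epcam or Cdh1. Without barcodes holding a neuronal marker UMI none of the 3 was past 2-fold, with log2 ratios of -0.38 for Crmp1, -0.66 for Gap43 and -0.26 for Dpysl3. The highest ratio was that of Dpysl5, with 35.1 CPM in mutant and 20.1 CPM in wild-type epithelium. Of the transducers 0 of 35 passed 2-fold in mesenchyme and 0 of 32 in glia, and in neurons 2 of 33 were lower (6.06%, beside 11.3% of all genes), Myo10 with 6.15 CPM in mutant and 20.4 CPM in wild-type neurons and Dock1 with 4.30 and 13.3 CPM.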

How the data were processed

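Single-cell 3′ libraries of E16.5 cochleae, 1 per genotype with 8 cochleae pooled in each, were analysed from the deposited raw UMI counts per gene and barcode, which the authors had not normalized. The submitters' processing notes name mm10 and version 6.0.0 of Cell Ranger, while per the file headers the mutant counts came from version 5.0.1 and the wild-type counts from 6.0.0. The sample descriptions name different kit versions. The rule for calling cells is not given in the sources; the lowest barcode held 500 UMIs in the mutant and 3352 in the wild-type library. The mutant library held 12326 barcodes and 100135532 UMIs, the wild-type library 6500 barcodes and 61130806 UMIs, and 25 barcode sequences occurred in both.

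Barcodes with at least 1000 UMIs, 500 genes and at most 10% mitochondrial UMIs passed, 9373 mutant and 6440 wild-type. Scrublet's automatic threshold found 0 doublets in each library and was taken to have failed, and the top-scored 0.8% per 1000 barcodes were removed, 703 mutant and 332 wild-type. Clustering took both libraries jointly in scanpy 1.11.5, with igraph 0.11.9 (2000 variable genes, 30 components, 15 neighbours, Leiden resolution 1) without the members and both further guidance lists, and without correction between libraries. Clusters were named from marker sets. The naming rule was revised after the clusters were seen: chondrocyte and osteogenic sets were joined to mesenchyme and granulocytes to immune cells, and clusters whose 10 leading genes held more markers of another class stayed unnamed. Members, gene lists and markers were chosen with earlier results of these data known.

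UMIs were summed per library and class or cluster and given as CPM of that total with exact Poisson intervals; shares have exact Clopper-Pearson intervals. Log2 ratios add 1 CPM, and count genes with at least 10 UMIs over both libraries. A member was described in full with at least 100 UMIs in its highest class and at least 20 CPM in 1 library. It was named as differing with at least 30 UMIs and a 2-fold difference; in the further lists the highest and lowest ratios with at least 30 UMIs were named, and other genes past 2-fold where a count was 5 or fewer, after their values were seen. Clusters described between genotypes were also chosen after their values were seen. No p-values were computed, since cells are not replicates. Epithelial sub-clusters are called by leading genes, with a cell type where the marker sets gave one, and the 2 shallow clusters were given none. Epithelial counts were also simulated with counting error alone, with 200 of 16120 genes changed 4-fold, each of at least 100 UMIs. At the 2-fold limit 100% of the changed and 0.00628% of the unchanged genes were called. The simulation held no RNA of other lineages and no difference in cell composition, so it cannot show how often those lead to a call. A barcode was called mixed where 28 genes of 6 foreign lineages together exceeded 5 of 10000 UMIs. By this rule 498 mutant and 101 wild-type epithelial barcodes were not mixed. Dcn and Lum were among the genes counted as foreign to epithelium, so the rule is not specific to RNA of other lineages. Alternatives were scaling, doublets, resolution, depth floor, mixed barcodes, pseudocount and count minimum.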

Additional observations from a re-analysis of the deposited data

How the results depend on the processing

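No paired analysis was possible because each genotype has 1 library. Of the counts and medians recomputed under each alternative, 42 moved past the set limit (1.5 times for a count) and 206 did not. The cause of these moves was not tested. Epithelial members at least 2-fold higher (3) numbered 1 without mixed barcodes, 1 with 5 CPM added, 1 among Epcam or Cdh1 barcodes and 0 over shared clusters; those lower (4) numbered 2 without doublet removal and 2 with 5 CPM added. Other guidance genes higher in epithelium (1) numbered 2 at resolution 2, 5 without mixed barcodes and 0 among Epcam or Cdh1 barcodes; those lower (1) numbered 5 without mixed barcodes and 0 with the common UMI floor, with 5 CPM added or among Epcam or Cdh1 barcodes, where 1 transducer rather than 3 was lower and their median was -0.067 rather than 0.09. Mesenchymal members lower (1) numbered 2 at resolution 2 and 2 with the common floor, where 1 other guidance gene was lower rather than 0. Glial members higher (1) numbered 0 without mixed barcodes, with 5 CPM added and at 50 UMIs; those lower (1) numbered 0 without doublet removal, with 5 CPM added and at 50 UMIs, 3 with the common floor and 2 without mixed barcodes. Neuronal members higher (0) numbered 1 without doublet removal and 2 with the common floor or without mixed barcodes; those lower (9) numbered 2 without doublet removal, 4 without mixed barcodes, 2 with 5 CPM added and 4 at 50 UMIs. Settings chosen after seeing the data were the shared clusters, a mixed-barcode rule of 4 lineages, shallow or mixed clusters left out or added, the fits within clusters, and the neuronal markers. Without barcodes holding a neuronal UMI, 1 epithelial member was higher, 7 were lower and 1 transducer was lower; with over 5 such UMIs per 10000 left out, 1 transducer was higher. Members higher in the Calb1 cluster (1) numbered 0 without 4-lineage mixed barcodes and with 5 CPM added; in the Oc90 cluster (1) they numbered 3 with median-of-ratios scaling, 2 without 4-lineage mixed barcodes and 0 with 5 CPM added, while lower members ranged from 5 to 8 in both. Log2 ratios turned sign for Nrp1 (0.14 without mixed barcodes, 0.58 among Epcam or Cdh1 barcodes) and Ntn1 (-0.76 and -0.16, and -0.23 without barcodes holding a neuronal UMI) in epithelium and for Efnb2 in immune cells (-0.29 without 4-lineage mixed barcodes). Leaving out epithelial barcodes with a neuronal UMI took the median depth from 5172 to 3266.5 UMIs in the mutant and from 8229 to 7798 in the wild-type library. Mutant Ntn1 fell from 208 to 29 UMIs, and 175 of the 208 lay in the Oc90 cluster. Thinning to 1000 UMIs in place of 2000 was run for the shares of classes only. Mutant neurons (68 barcodes) and wild-type epithelium without mixed barcodes (101 barcodes) limit what these settings can show.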

Other observations

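Barcodes of the melanocyte or intermediate class, 23 in the mutant and 47 in the wild-type library, were under the 50 set for comparing classes, and their guidance genes are given here as values. Nrp1 had 251 CPM in mutant (201 to 311) and 191 CPM in wild-type cells of this class (155 to 234). Sema5a had 71.8 CPM in mutant (46.0 to 107) and 89.6 CPM in wild-type cells (65.1 to 120.3), near its levels in pericytes of 107 and 106 CPM. Plxna1 had 68.8 CPM in mutant (43.6 to 103) and 59.0 CPM in wild-type cells (39.5 to 84.8), above its 30.1 and 31.9 CPM in neurons. Epha5 had 50.9 CPM in mutant and 52.9 CPM in wild-type cells. For each of these 4 genes the intervals of both libraries overlapped.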
